A study of Mus musculus with 8 samples.

Results

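The transcripts of the proteasome were followed in Paneth cells, which secrete antimicrobial peptides from the bottom of the crypts of the small intestine. The genes were the 38 subunits of the standard proteasome, the immunoproteasome and their activators. They were found by matching gene symbols to the Ensembl IDs of the count table through the GENCODE mouse annotation, and all 38 had a row among 55414. Wild-type (WT) C57BL/6J mice received an injection of PBS, the vehicle, or of the inflammatory cytokine TNF (tumor necrosis factor), and their small intestine was taken after 3 hours to sort Paneth cells. Each of the groups, WT PBS and WT TNF, had 4 libraries, described by the submitters as biological replicates. The age and sex of the mice and the dose of TNF are unknown here. In bulk samples of this kind, a change in the share of cells that use a gene and a change in RNA per cell cannot be told apart.

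The proteasome is the protease that degrades ubiquitin-tagged proteins. Its barrel, the 20S core, is built of alpha subunits (Psma genes), which form the gated outer rings, and beta subunits (Psmb genes), of which Psmb5, Psmb6 and Psmb7 carry the proteolytic sites. The 19S cap, made of the Psmc ATPases and the Psmd non-ATPase subunits, recognizes and unfolds the substrates. Interferons and other inflammatory signals are known to induce Psmb8, Psmb9 and Psmb10, which take the places of Psmb5, Psmb6 and Psmb7 in newly built cores and so form the immunoproteasome. The same signals induce Psme1 and Psme2, the subunits of the activator ring PA28, and the peptides made by these particles are loaded onto MHC class I molecules. Psme3 forms a nuclear ring of the same family (PA28gamma) and Psme4 encodes the single-chain activator PA200. In the following, the 5 inducible genes are compared with the 14 constitutive core subunits and the 17 cap subunits, and Psme3 and Psme4 are given beside them as the other activators.

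The promoters of the inducible genes and of their counterparts are shown first, because these genes were compared pair by pair. RefSeq windows running from 250 bases before to 50 bases after the transcription start (GRCm38.p6) were matched by symbol for 32 of the 38 genes, and 3 of these had more than 1 window. Psmb1, Psmb2, Psmb7, Psmc3, Psmd3 and Psmd7 had no entry. Letters were searched on both strands for the core of the interferon-stimulated response element (ISRE, the letters GAAA, any 2 bases and GAAA again), the gamma-activated site bound by STAT factors (GAS, TTCNNNGAA), the antioxidant response element core read by NRF1 and NRF2 (ARE, TGACNNNGC) and the kappaB consensus, of which no 2 matches overlapped. Capitals mark a match and the positions are on GRCm39, found by exact match of each window, with the sequence on the strand of the gene. Psmb8, Psmb9 and Psme1 are shown as inducible genes, and Psmb5 and Psmb6 as the constitutive counterparts with a window. Starts given below are those of RefSeq. The windows of the inducible genes shown lie inside the GENCODE genes, which begin at 34416690 (Psmb8), 34406738 (Psmb9) and 55815190 (Psme1).

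Psmb8, chr17:34416919-34417218, plus strand, with a GAS match beginning 97 bases before the start:
Psmb8: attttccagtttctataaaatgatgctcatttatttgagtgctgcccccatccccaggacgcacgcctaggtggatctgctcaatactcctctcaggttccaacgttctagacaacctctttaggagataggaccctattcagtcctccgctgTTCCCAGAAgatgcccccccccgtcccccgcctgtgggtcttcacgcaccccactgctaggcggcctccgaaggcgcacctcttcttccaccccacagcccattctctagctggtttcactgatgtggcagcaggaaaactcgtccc
Psmb9, chr17:34406255-34406554, minus strand, with no match to the 4 motifs, sharing 275 of 300 bases with the window of the divergent gene Tap1:
Psmb9: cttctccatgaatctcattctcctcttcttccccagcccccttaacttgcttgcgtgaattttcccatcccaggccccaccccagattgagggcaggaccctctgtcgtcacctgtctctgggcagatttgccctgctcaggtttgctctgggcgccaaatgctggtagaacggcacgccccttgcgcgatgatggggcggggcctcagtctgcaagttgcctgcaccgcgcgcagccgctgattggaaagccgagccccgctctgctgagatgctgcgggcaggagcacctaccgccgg
Psme1, chr14:55815701-55816000, plus strand, with an ISRE match on the reverse strand beginning 10 bases into the transcript:
Psme1: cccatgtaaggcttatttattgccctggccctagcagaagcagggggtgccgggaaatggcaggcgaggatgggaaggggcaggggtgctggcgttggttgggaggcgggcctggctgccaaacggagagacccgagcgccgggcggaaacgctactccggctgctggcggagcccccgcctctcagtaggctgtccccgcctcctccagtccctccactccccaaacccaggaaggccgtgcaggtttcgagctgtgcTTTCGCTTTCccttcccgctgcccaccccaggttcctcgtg
Psmb5, chr14:54855403-54855702, minus strand, with an ARE match beginning 47 bases before the start:
Psmb5: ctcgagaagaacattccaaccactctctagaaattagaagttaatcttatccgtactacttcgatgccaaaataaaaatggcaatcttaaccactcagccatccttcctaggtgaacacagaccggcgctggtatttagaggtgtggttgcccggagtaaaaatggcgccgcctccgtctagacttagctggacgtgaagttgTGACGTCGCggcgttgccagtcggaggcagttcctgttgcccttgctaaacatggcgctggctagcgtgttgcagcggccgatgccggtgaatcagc
Psmb6, chr11:70415933-70416232, plus strand, with an ARE match beginning 9 bases before the start:
Psmb6: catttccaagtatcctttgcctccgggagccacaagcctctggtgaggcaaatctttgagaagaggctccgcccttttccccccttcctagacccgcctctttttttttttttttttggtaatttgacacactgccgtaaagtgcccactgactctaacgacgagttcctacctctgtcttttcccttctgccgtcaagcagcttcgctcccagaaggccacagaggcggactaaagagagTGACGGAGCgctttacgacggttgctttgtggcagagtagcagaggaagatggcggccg

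Among the 5 inducible genes 1 window held an ISRE match (Psme1) and 1 a GAS match (Psmb8), against 3.99% and 9.55% of the 27025 genes of the RefSeq table. None of the 5 held a kappaB or an ARE match. Of the 11 constitutive core genes with a window 2 held an ARE match (Psmb5 and Psmb6) and 1 an ISRE match (Psmb3), and ARE matches were found in 14% of all genes. Among the 14 cap genes with a window, Psmd4 held an ISRE match, Psmd2 a GAS match, Psmc6 and Psmd12 an ARE match, and Psmd12 also the only kappaB match, a motif found in 5.14% of all genes. Psme4 held an ARE match. These are matches of letters in a short window and no binding was measured.

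The libraries held 23824717 to 32576077 counts, and the 38 genes had between 143 and 3396 counts in each library, so all of them passed the filter on low counts. The sort was checked on its markers. All 8 Paneth cell markers were detected and Lyz1, the lysozyme of Paneth cells, stood at 141600 ± 24820 normalised CPM in PBS (CPM, the counts scaled to a common library size corrected by TMM factors, SD, n = 4). TNF replicate 4 stood apart from the other TNF libraries. It had the fewest detected genes (16712), a TMM factor of 0.448 against 0.995 to 1.36 in the other 7 libraries, and 51.4% of its counts on alpha-defensin genes against 32.0% to 37.9%. It was the highest TNF library for 31 of the 38 proteasome genes. PBS replicate 4 was the lowest PBS library for 34 of them. Members described by their values in each library are therefore also given without TNF replicate 4.

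TNF raised the transcripts of the immunoproteasome. All 5 inducible genes rose, and the 4 TNF values lay above the 4 PBS values for each of them. Of the 38 genes 18 were called higher and 0 lower in TNF (edgeR quasi-likelihood test, Benjamini-Hochberg adjustment over all genes, adjusted p under 0.05), against 23.4% of the 13368 tested genes called higher and 19.6% called lower. None of the 38 had a negative log2 fold change in this fit, 26 had an unadjusted p under 0.05, and DESeq2 and limma-voom called 0 lower as well. Without TNF replicate 4 the count was 20 higher and 0 lower, against 26.6% and 23.8% of all genes. The median log2 fold change was 1.91 over the 5 inducible genes and 0.50 over the 31 core and cap genes, against 0.026 over all tested genes. Without TNF replicate 4 the medians were 1.47, 0.33 and -0.022. For 21 of the 38 genes every TNF value exceeded every PBS value, while 22.4% of all tested genes showed the same separation. The plot of log2 fold changes by subunit group shows both fits.

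**Figure D1:**
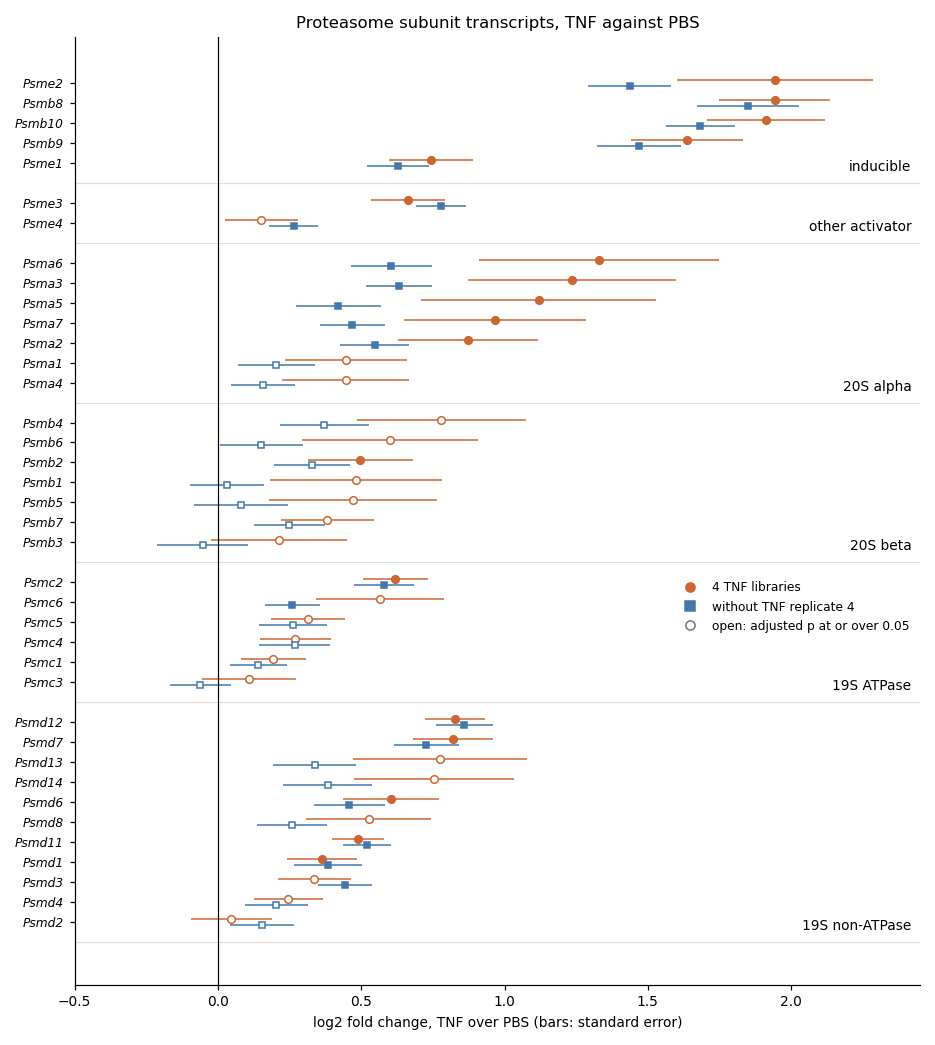
Log2 fold change of TNF over PBS for the 38 genes (x axis, bars show the standard error), ordered by subunit group, from 4 against 4 libraries (circles) and without TNF replicate 4 (squares). Filled symbols have an adjusted p under 0.05. Psmb8, Psmb9, Psmb10 and Psme2 lie beyond 1.4 in both fits, and Psma6, Psma5 and Psma3 move most between the fits.

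The size of these changes depended on the scaling, and so did the calls of the core and cap genes and of Psme1. Under library size alone the median log2 fold change was 1.34 over the 5 inducible genes and 0.023 over the core and cap genes. When counts were scaled by library size alone, the median of all tested genes moved to -0.38, 5.66% of genes were called higher and 18.1% lower, and 4 of the 38 genes were called higher, namely Psmb8, Psmb9, Psmb10 and Psme2. None of the 31 core and cap genes was called in that fit, in which 2 of them had an unadjusted p under 0.05. Log2 fold changes were negative for 15 of the 38 genes in that fit, 1 of them (Psmd1, -0.0096) called higher with TMM. Relative to the median of all genes, the inducible median was 1.72 and the core and cap median 0.40 under library size alone, against 1.88 and 0.47 with TMM. Psmb8, Psmb9, Psmb10 and Psme2 were called in all 17 fits that kept the threshold of 0.05, and Psme1, Psme3, Psmc2, Psmd7, Psmd11 and Psmd12 in 16 of them, all but library size alone.

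The catalytic subunits of the immunoproteasome rose about 3-fold to 4-fold with TMM scaling. Under library size alone their log2 fold changes were smaller, at 1.52 for Psmb8, 1.17 for Psmb9 and 1.42 for Psmb10. Psmb8 (ENSMUSG00000024338, beta5i, chromosome 17, 34416690 to 34420428, GRCm39) replaces Psmb5 at the chymotrypsin-like site. It stood at 5.28, 8.997, 7.17 and 6.15 normalised CPM in PBS replicates 1 to 4 and at 27.3, 26.1, 19.9 and 32.6 in TNF replicates 1 to 4. The lowest TNF library was more than 2-fold above the highest PBS library. The log2 fold change of Psmb8 was 1.94 (SE 0.20, adjusted p 2.26e-05 by edgeR), or 1.85 without TNF replicate 4.

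Psmb9 (ENSMUSG00000096727, beta1i, chromosome 17, 34400960 to 34406738) replaces Psmb6. Its values were 5.74, 5.99, 5.63 and 4.68 normalised CPM in PBS and 15.9, 17.1, 12.1 and 23.8 in TNF. TNF replicate 3 was the lowest of its group and still above all PBS libraries. The log2 fold change of Psmb9 was 1.64 (SE 0.20, adjusted p 7.55e-05 by edgeR), or 1.47 without TNF replicate 4. Psmb9 lies head to head with Tap1, a subunit of the peptide transporter, and their annotated transcripts overlap on opposite strands, so that 65.5% of the 75-base stretches of the canonical Psmb9 transcript occur in no other gene. Whether counting used strand is unknown here.

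Psmb10 (ENSMUSG00000031897, beta2i, chromosome 8, 106662362 to 106665077) replaces Psmb7 and was the most abundant of the inducible catalytic subunits. It stood at 21.2, 22.3, 23.3 and 16.7 normalised CPM in PBS and at 65.4, 70.4, 63.0 and 115.8 in TNF. The log2 fold change of Psmb10 was 1.91 (SE 0.21, adjusted p 3.72e-05 by edgeR), or 1.68 without TNF replicate 4. All of its transcript was unique at 75 bases.

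**Figure D2:**
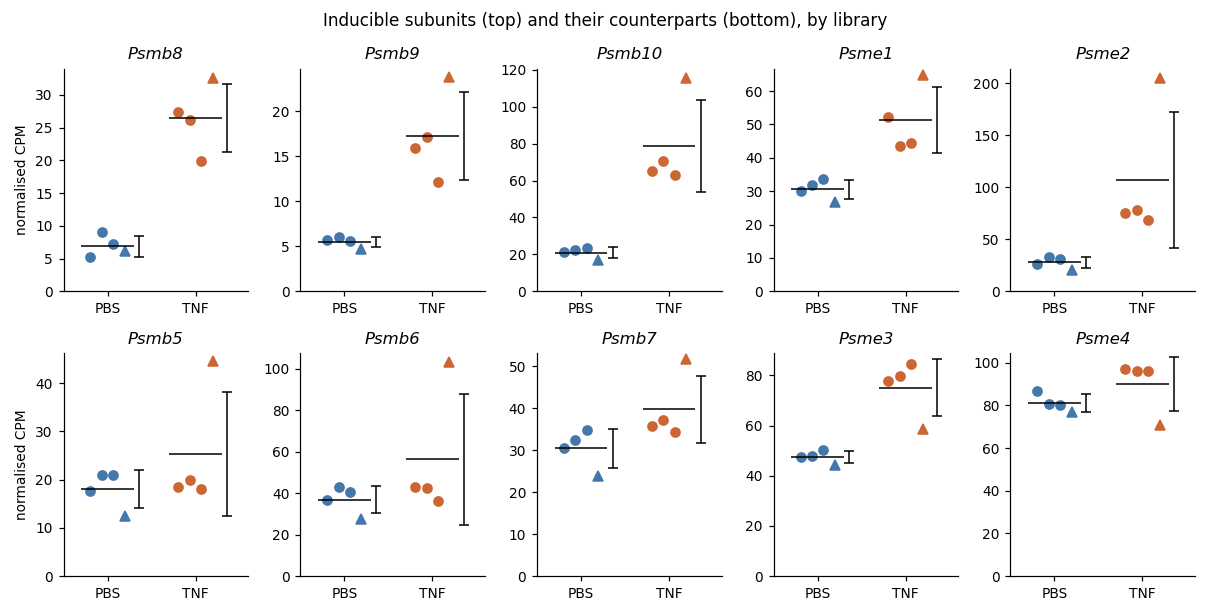
Normalised CPM (y axis) of the 5 inducible genes (top row) and of Psmb5, Psmb6, Psmb7, Psme3 and Psme4 (bottom row) in each PBS and TNF library. Horizontal lines are group means, the bars beside them the SD (n = 4), and triangles mark replicate 4 of each group. For the inducible genes every TNF library lies above every PBS library, while for Psmb5, Psmb6 and Psmb7 TNF replicate 4 lies far above the other TNF libraries.

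The constitutive counterparts did not pass the test. Psmb5, the chymotrypsin-like subunit, stood at 17.7, 21.1, 21.0 and 12.5 normalised CPM in PBS and at 18.5, 19.9, 18.1 and 44.6 in TNF, a log2 change of 0.47 (SE 0.29, adjusted p 0.220 by edgeR) that was 0.080 without TNF replicate 4. Psmb6, the caspase-like subunit, stood at 36.9, 42.8, 40.6 and 27.5 in PBS and at 42.9, 42.6, 36.2 and 103.4 in TNF, a log2 change of 0.60 (SE 0.31, adjusted p 0.139 by edgeR) or 0.15 without that library. Psmb7, the trypsin-like subunit, stood at 30.5, 32.5, 34.8 and 23.98 in PBS and at 35.7, 37.2, 34.3 and 51.7 in TNF, a log2 change of 0.38 (SE 0.16, adjusted p 0.0800 by edgeR) or 0.25 without it. For these 3 genes TNF replicates 1 to 3 lay within or just above the range of PBS, and TNF replicate 4 lay above all other libraries. Psmb5 and Psmb7 changed sign under library size alone (-0.074 and -0.061).

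The balance between each inducible subunit and the subunit whose place it takes was then compared within libraries, which removes library size and scaling. The ratio of Psmb8 to Psmb5 counts was 0.298, 0.427, 0.341 and 0.491 in PBS and 1.48, 1.31, 1.10 and 0.732 in TNF. On the log2 scale it rose by 1.54 (SE 0.27, two-sided exact permutation test over 70 assignments, p = 0.0286, adjusted p = 0.0357 over 5 ratios). Every TNF library was above every PBS library, and TNF replicate 4 was the nearest to PBS. The ratio of Psmb9 to Psmb6 was 0.156, 0.140, 0.139 and 0.170 in PBS and 0.372, 0.401, 0.335 and 0.230 in TNF, a log2 difference of 1.12 (SE 0.19, exact permutation p = 0.0286, adjusted p = 0.0357). The ratio of Psmb10 to Psmb7 was the most even, at 0.670 to 0.697 in the 4 PBS libraries and 1.83 to 2.24 in the 4 TNF libraries, a log2 difference of 1.499 (SE 0.071, exact permutation p = 0.0286, adjusted p = 0.0357).

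Without TNF replicate 4 these 3 log2 differences were 1.75, 1.29 and 1.43. The p of 0.0286 is the smallest that 4 against 4 libraries allow. Leaving out any 1 of PBS replicates 1, 2, 3 or 4 kept the log2 differences between 1.43 and 1.66 for Psmb8, 1.08 and 1.18 for Psmb9 and 1.49 and 1.51 for Psmb10, with an adjusted exact permutation p of 0.0714 for each. Measured against the summed counts of the other 13 constitutive core genes in place of the counterpart, the log2 differences were 1.30, 0.95 and 1.22 (exact permutation test, adjusted p = 0.0357 each).

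Expressed per kilobase of coding sequence, the inducible subunit made up 26.9% ± 4.36 of the Psmb8 and Psmb5 pair in PBS and 51.7% ± 7.59 in TNF (SD, n = 4). For Psmb9 and Psmb6 the share went from 14.1% ± 1.18 to 26.5% ± 4.56, and for Psmb10 and Psmb7 from 41.1% ± 0.447 to 66.3% ± 2.12. At 3 hours the transcripts of the inducible subunit thus exceeded those of the counterpart for Psmb10 in all 4 TNF libraries, for Psmb8 in TNF replicates 1 to 3 and for Psmb9 in none. Without TNF replicate 4 the mean shares in TNF were 55.1%, 28.6% and 65.3%. At 75 bases 62.0% of the Psmb5 transcript and 75.9% of the Psmb7 transcript were unique, against all of Psmb6, 96.9% of Psmb8 and all of Psmb10, so these shares may depend on how shared reads were counted. They are shares of mRNA, and the assembled particles were not measured.

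**Figure D3:**
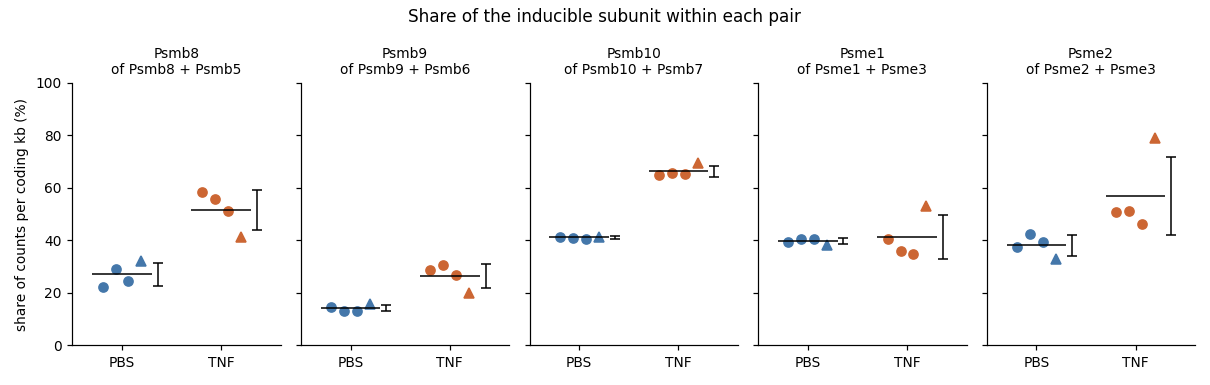
Share of the inducible subunit within each pair (y axis, percent of counts per kilobase of coding sequence) in each PBS and TNF library, with the group mean (line) and SD (bar, n = 4). Triangles mark replicate 4 of each group. The shares of Psmb8, Psmb9, Psmb10 and Psme2 do not overlap between the groups, and those of Psme1 do.

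The PA28 activator rose with the catalytic subunits. Psme2 (ENSMUSG00000079197, PA28beta, chromosome 14, 55824895 to 55829173) stood at 26.6, 32.9, 30.9 and 20.6 normalised CPM in PBS and at 75.7, 78.4, 68.3 and 205.1 in TNF. All TNF libraries were more than 2-fold above the highest PBS library, and TNF replicate 4 was far above the other TNF libraries. The log2 fold change of Psme2 was 1.94 (SE 0.34, adjusted p 0.00101 by edgeR), or 1.44 without TNF replicate 4. At 75 bases 45.2% of its transcript was unique, as it shares sequence with Psme2b, a near-identical copy on chromosome 11, and overlaps Rnf31. Psme2b, named after its values were seen, was at 1.64 ± 0.323 normalised CPM in PBS and 6.92 ± 4.05 in TNF (SD, n = 4), and reads of these genes may be split between them.

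Psme1 (ENSMUSG00000022216, PA28alpha, chromosome 14, 55815190 to 55822034) lies next to Psme2 and its product forms the ring together with that of Psme2. It stood at 30.1, 31.9, 33.5 and 26.7 normalised CPM in PBS and at 52.1, 43.6, 44.4 and 64.8 in TNF. The log2 fold change of Psme1 was 0.74 (SE 0.15, adjusted p 0.00193 by edgeR), or 0.63 without TNF replicate 4, and it was not called under library size alone (0.31 there). The lowest TNF library was above the highest PBS library, though by less than for the other 4 inducible genes. The annotated transcript of Psme1 overlaps Emc9 and 51.1% of it was unique at 75 bases. The difference between the changes of Psme1 and Psme2 was not tested.

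Of the other activators Psme3 rose and Psme4 did not pass the test. Psme3 (ENSMUSG00000078652) rose from 47.6, 47.8, 50.2 and 44.4 normalised CPM in PBS to 77.7, 79.7, 84.6 and 58.5 in TNF, a log2 change of 0.66 (SE 0.13, adjusted p 0.00191 by edgeR) or 0.78 without TNF replicate 4. Psme4 (ENSMUSG00000040850) stood at 86.7, 80.8, 80.1 and 76.8 in PBS and at 97.0, 96.1, 96.1 and 70.9 in TNF, a log2 change of 0.15 (SE 0.13, adjusted p 0.362 by edgeR). Here TNF replicate 4 was the lowest library of its group for both genes, in contrast to most of the family. Without it the 3 TNF values of Psme4 were all above PBS and the gene was called, at 0.26 (edgeR adjusted p 0.0233). Under library size alone the value was -0.19.

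Within libraries, Psme2 gained on Psme3, and for Psme1 no change against Psme3 was resolved. The ratio of Psme2 to Psme3 counts was 0.560, 0.687, 0.615 and 0.464 in PBS and 0.974, 0.983, 0.808 and 3.51 in TNF, a log2 difference of 1.16 (SE 0.50, exact permutation p = 0.0286, adjusted p = 0.0357). Without TNF replicate 4 it was 0.67 with the same p, and leaving out any 1 PBS library gave 1.05 to 1.24 (exact permutation test, adjusted p = 0.0714). The ratio of Psme1 to Psme3 was 0.633, 0.667, 0.667 and 0.603 in PBS and 0.670, 0.547, 0.525 and 1.11 in TNF. Its log2 difference of 0.083 (SE 0.25, exact permutation p = 0.886, adjusted p = 0.886) became -0.15 without TNF replicate 4 (exact permutation p = 0.257). Given that SE, a change of this ratio in either direction was not resolved.

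Summed over genes, the inducible set stood at 91.6 ± 12.6 normalised CPM in PBS and at 280.5 ± 108.6 in TNF (SD, n = 4), or 226.6 ± 16.4 over TNF replicates 1 to 3. The 14 constitutive core genes summed to 450.1 ± 69.8 in PBS and 759.7 ± 411.9 in TNF, or 554.3 ± 37.2 without TNF replicate 4. The 17 cap genes summed to 536.8 ± 53.8 in PBS and 720.8 ± 100.7 in TNF, or 671.3 ± 22.6 without it. In TNF replicate 4 alone the core summed to 1376.0 and the cap to 869.2.

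Of the 31 core and cap genes 12 (38.7%) were called higher and 0 lower, against 23.4% of all genes called higher, and 13 were called higher without TNF replicate 4. The count fell to 7 (22.6%) without PBS replicate 1, against 18.2% of all genes, and to 7 without PBS replicate 4, against 21.8%, a share near that of all genes, and the genes kept in both cases were Psma2, Psma3, Psmc2, Psmd6, Psmd7, Psmd11 and Psmd12. Changes in this group were smaller than those of Psmb8, Psmb9, Psmb10 and Psme2. The highest log2 fold change among the 31 was 1.33 with TNF replicate 4 and 0.86 without it.

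In the alpha ring, which gates the core, 5 of 7 genes were called higher (Psma2, Psma3, Psma5, Psma6 and Psma7), against 23.4% of all genes. The median log2 fold change was 0.97, or 0.47 without TNF replicate 4, with the same 5 called. Leaving out a PBS library lowered the count, as 2 of 7 remained without PBS replicate 1 or 4 (Psma2 and Psma3) and 3 of 7 without PBS replicate 2 or 3 (with Psma6), Psma5 and Psma7 being lost in each case. In these 4 fits 18.2% to 21.8% of all genes were called higher, not far below 2 of 7 (28.6%), and 0 of 7 alpha genes were called under library size alone. Psma6 had the largest value. It stood at 36.2, 43.2, 43.5 and 29.6 normalised CPM in PBS and at 59.4, 62.5, 50.0 and 212.9 in TNF, a log2 change of 1.33 (SE 0.42, adjusted p 0.0249 by edgeR) or 0.60 without TNF replicate 4. Psma4 had the smallest, with PBS values of 43.1, 38.3, 43.0 and 33.05 and TNF values of 46.1, 43.6, 40.5 and 84.8, a log2 change of 0.45 (SE 0.22, adjusted p 0.131 by edgeR) or 0.16 without TNF replicate 4. Psma3 went from 1.23 to 0.63 and Psma5 from 1.12 to 0.42 when TNF replicate 4 was left out. Only 59.6% of the Psma5 transcript was unique at 75 bases, as a pseudogene shares its sequence, and 79.9% of Psma3 was.

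Among the constitutive beta subunits 1 of 7 was called, Psmb2, at 0.50 (edgeR adjusted p 0.0476), a share of 14.3% against 23.4% of all genes. The count was 0 of 7 without TNF replicate 4, against 26.6% of all genes, and 2 had an unadjusted p under 0.05. The median log2 fold change was 0.48, or 0.15 without that library. Psmb4 had the largest value, from 38.9, 42.0, 43.3 and 26.1 normalised CPM in PBS to 49.3, 49.5, 45.3 and 114.6 in TNF, a log2 change of 0.78 (SE 0.29, adjusted p 0.0536 by edgeR) or 0.37 without TNF replicate 4. Psmb3 had the smallest, with 22.3, 24.4, 23.7 and 15.1 in PBS and 22.4, 20.6, 18.1 and 38.6 in TNF, a log2 change of 0.21 (SE 0.24, adjusted p 0.5 by edgeR) that was -0.053 without TNF replicate 4 (and -0.28 when scaled by library size alone). Of the Psmb3 transcript 63.0% was unique at 75 bases. The catalytic and structural members of the ring, Psmb1 included at 0.48 (0.031 without TNF replicate 4), were alike in that TNF replicate 4 was the highest TNF library for each.

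In the cap, the base ATPases that thread substrates into the core were called in 1 of 6 cases (16.7%, against 23.4% of all genes), with a median of 0.29 (0.26 without TNF replicate 4). That gene was Psmc2, which rose from 27.2, 29.7, 27.0 and 23.1 normalised CPM in PBS to 38.04, 41.8, 38.8 and 45.8 in TNF, a log2 change of 0.62 (SE 0.12, adjusted p 0.00143 by edgeR) or 0.58 without TNF replicate 4. Without that library Psmc6 was called too (2 of 6, against 26.6% of all genes), at 0.26 (edgeR adjusted p 0.0429). Psmc3 had the smallest value, with 48.1, 49.9, 51.6 and 39.9 in PBS and 45.8, 44.8, 44.1 and 69.7 in TNF, a log2 change of 0.11 (SE 0.16, adjusted p 0.628 by edgeR) that was -0.061 without TNF replicate 4.

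Of the 11 non-ATPase cap genes 5 were called higher (Psmd1, Psmd6, Psmd7, Psmd11 and Psmd12), or 45.5% against 23.4% of all genes, with a median of 0.53 that was 0.38 without TNF replicate 4, where Psmd3 was called as well (54.5%, against 26.6% of all genes) at 0.44 (edgeR adjusted p 0.00230). Psmd12, a scaffold subunit of the lid, rose most. It stood at 20.8, 20.1, 20.2 and 17.9 normalised CPM in PBS and at 32.5, 35.8, 38.2 and 33.7 in TNF, a log2 change of 0.83 (SE 0.10, adjusted p 0.000111 by edgeR) or 0.86 without TNF replicate 4. Psmd7, the partner of the deubiquitinase Psmd14, followed at 0.82 (SE 0.14, adjusted p 0.000881 by edgeR), and Psmd11, another lid scaffold, was at 0.49 (0.52 without TNF replicate 4) with TNF values of 36.5 to 39.1 against 26.2 to 27.7 in PBS. For Psmd11, Psmd12 and Psmc2 the 4 TNF libraries were close to each other, TNF replicate 4 included.

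Psmd2, a scaffold of the base like Psmd1, had the smallest value in the cap. It stood at 79.4, 74.4, 72.3 and 57.8 normalised CPM in PBS and at 76.6, 80.4, 77.5 and 58.5 in TNF, a log2 change of 0.047 (SE 0.14, adjusted p 0.815 by edgeR) or 0.15 without TNF replicate 4, with both replicate 4 libraries low. Psmd14, which removes ubiquitin chains at the entry of the core, was at 0.75 and did not pass (edgeR adjusted p 0.05), or at 0.38 without TNF replicate 4, while Psmd4, a ubiquitin receptor, was at 0.25 (edgeR adjusted p 0.123). The transcript of Psmd13 overlaps Sirt3, and 61.9% of it was unique at 75 bases.

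Levels between genes were compared per kilobase of coding sequence in PBS, since the annotated untranslated ends differ widely in length. Psmb8 and Psmb9 were the lowest of the 38 genes, at 8.33 and 8.39 normalised CPM per coding kilobase, next to Psmd1 at 11.8. Psmb10 was at 25.5 (position 21), Psme2 at 38.7 (position 12) and Psme1 at 40.9 (position 9), within the range of the constitutive core. Psmb1 was the highest at 70.6. The order depended on the length used. Per kilobase of annotated transcript Psmb8 and Psmb9 were again the lowest, at positions 38 and 37, Psmb10 was at position 18 and Psme2 at 6, but Psmb1 fell to position 33 (8.46 normalised CPM per kilobase) and Psme1 to 35 (7.23). Per coding kilobase the counterparts stood at 22.8 for Psmb5, 51.7 for Psmb6 and 36.6 for Psmb7.

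The excess in TNF replicate 4 was uneven over the family. Its log2 deviation from the mean of TNF replicates 1 to 3 ranged from -0.46 (Psme3) to 1.89 (Psma6) over the 38 genes, with a median of 0.65. Across genes, which are not independent and come from the same libraries, the deviation had a Spearman correlation of -0.678 with coding length and of -0.391 with transcript length. Over 8343 genes with a mean of at least 5 normalised CPM in TNF the correlation with transcript length was -0.336. All 15 members with a transcript of at most 1500 bases were above 0. The 7 members below 0 were Psmd1, Psmd2, Psmd3, Psmd11, Psmd12 and Psme4, whose coding sequences are among the longer ones, and Psme3, whose coding sequence is short. The part of this in the results above was not tested.

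**Figure D4:**
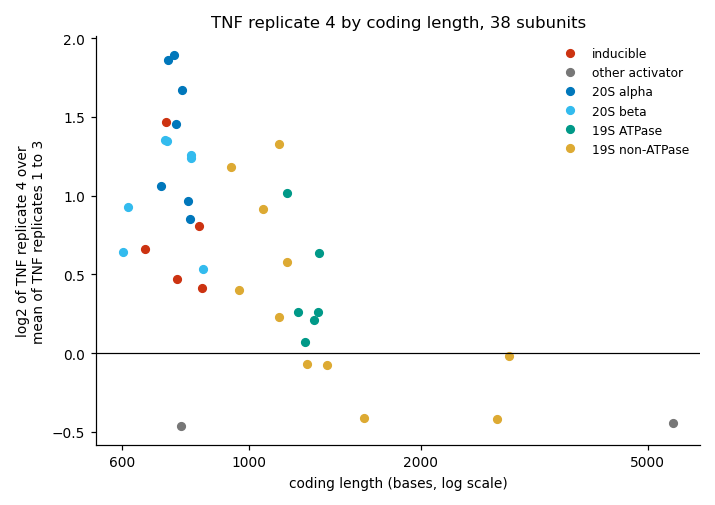
Log2 ratio of TNF replicate 4 to the mean of TNF replicates 1 to 3 (y axis) against coding length in bases (x axis, log scale) for the 38 genes, coloured by subunit group. The values run from 1.89 for Psma6 to -0.46 for Psme3, and 6 of the 7 genes below 0 have coding sequences of 1266 bases or more.

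Genes that build, regulate, supply or follow the proteasome were counted in 4 lists. Among regulators 8 of 11 rose (median 1.35), against 23.4% of all genes called higher. Irf1, an activator of Psmb8, Psmb9 and Tap1 in interferon responses, had 24.8 to 31.8 normalised CPM in PBS and 123.6 to 164.6 in TNF, a log2 change of 2.35 (SE 0.14, adjusted p 6.68e-07 by edgeR). The NF-kB subunits Rela and Nfkb1 rose by 2.31 and 2.02 on the log2 scale (edgeR adjusted p 2.15e-06 and 3.85e-06). Nlrc5, a transactivator of MHC class I genes, rose by 1.72 (SE 0.48, adjusted p 0.0146 by edgeR) from 3 to 18 counts per library in PBS to 11 to 32 in TNF, groups that overlapped in normalised CPM. Nfe2l1, which encodes NRF1, the factor that restores constitutive subunits when proteasome activity falls short, rose by 0.41 (SE 0.14, adjusted p 0.0374 by edgeR), with groups that overlapped through TNF replicate 4, or by 0.51 without that library, when they did not overlap. Nfe2l2 was at -0.31 (edgeR adjusted p 0.0507).

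Among assembly and accessory factors 5 of the 15 tested genes rose and 1 fell (median 0.11), against 23.4% and 19.6% of all genes. Pomp, a chaperone that assembles new cores, rose from 19.8, 21.5, 22.2 and 16.4 normalised CPM in PBS to 27.8, 27.5, 24.6 and 41.7 in TNF, a log2 change of 0.60 (SE 0.17, adjusted p 0.0164 by edgeR) or 0.43 without TNF replicate 4. The ubiquitin receptor Adrm1 rose by 0.69 (edgeR adjusted p 0.000992) and the deubiquitinase Usp14 by 0.60 (adjusted p 0.00284). Psmg4 and Psmd10, chaperones of the core and the base, rose by 1.51 and 0.87, and by 0.79 and 0.50 without TNF replicate 4. Psmd5, a chaperone of the base, fell from 18.5 to 20.4 normalised CPM in PBS to 9.58 to 13.2 in TNF, a log2 change of -0.67 (SE 0.13, adjusted p 0.00158 by edgeR). Without TNF replicate 4 there were 4 of 15 genes lower, with Psmg1 (-0.65), Psmg2 (-0.51) and Ecpas (-0.32) joining Psmd5. This is near the 23.8% of all genes called lower in that fit. The tissue-restricted subunits were absent or nearly so, with Psmb11 at 0 counts in all libraries and Psma8 at 3 counts in 1 of them.

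Among genes of ubiquitin supply and shuttling 4 of the 16 tested rose (median 0.18), near the 23.4% of all genes. Without TNF replicate 4 the count was 7 of 16 higher (43.8%), against 26.6% of all genes. Nub1, which delivers the ubiquitin-like modifiers FAT10 and NEDD8 to the proteasome, rose by 0.97 (SE 0.11, adjusted p 3.98e-05 by edgeR). Zfand5, which stimulates the proteasome, rose by 0.85 (adjusted p 0.000166), Nploc4, a cofactor of the segregase Vcp, by 0.80 (adjusted p 0.000929) and its partner Ufd1 by 0.45 (adjusted p 0.0142). Ubd, which encodes FAT10, was below the filter, with 0 or 1 counts in each PBS library and 3 in each TNF library.

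Among the partners that carry proteasome products to MHC class I 5 of 8 rose (median 0.65), against 23.4% of all genes. The transporter subunits Tap2 and Tap1 rose by 2.67 and 2.52 on the log2 scale (edgeR adjusted p 3.61e-07 and 6.53e-07), values above those of all 38 subunits. Tap1 stood at 7.60 to 8.79 normalised CPM in PBS and 35.1 to 52.3 in TNF. Tapbp, which bridges the transporter to MHC class I, rose by 1.90 (edgeR adjusted p 3.83e-06), B2m, the light chain, by 0.83 and Erap1, which trims the peptides, by 0.47. The endoplasmic reticulum chaperones Calr, Canx and Pdia3 were not called (0.23, 0.059 and -0.34), although Pdia3 was called lower without TNF replicate 4 (-0.44, adjusted p 0.0157 by edgeR). Under library size alone fewer genes were higher in all 4 lists, with 4 regulators higher, 1 assembly factor higher and 3 lower, 0 genes of ubiquitin supply called (1 at an unadjusted p under 0.05), and 3 peptide supply partners higher and 1 lower, against 5.66% of all genes higher and 18.1% lower in that fit.

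**Figure D5:**
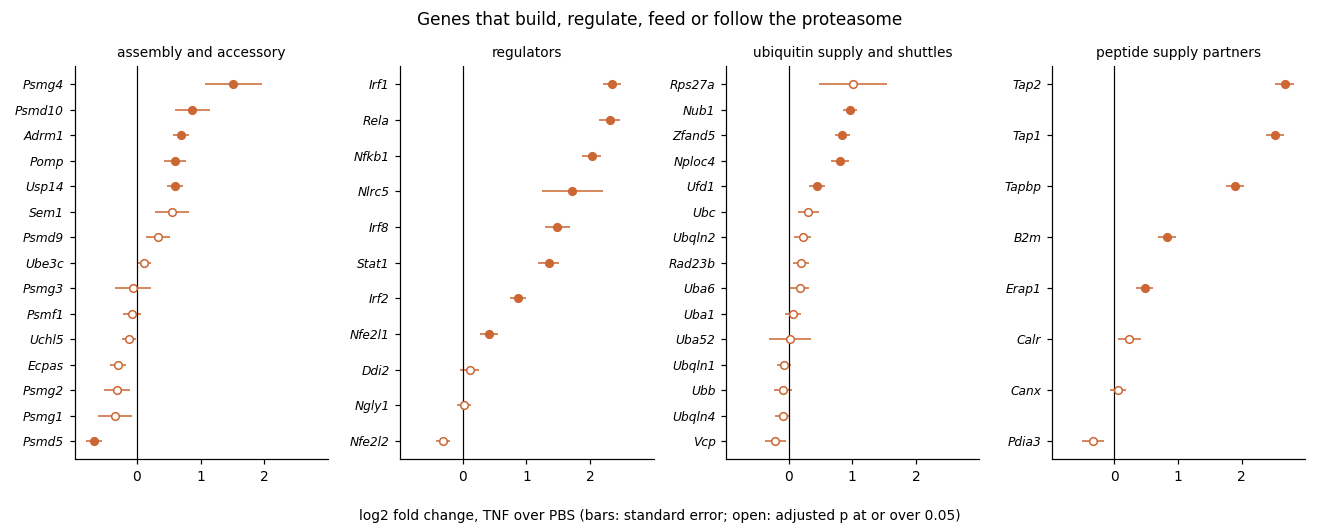
Log2 fold change of TNF over PBS (x axis, bars show the standard error) for tested genes of the lists of assembly factors, regulators, ubiquitin supply and peptide supply partners. Filled symbols have an adjusted p under 0.05. The largest values are those of Tap2 (2.67), Tap1 (2.52) and Irf1 (2.35), and Psmd5 (-0.67) is the lowest of the called genes.

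Leukocytes express the immunoproteasome at rest, so their markers are given beside the inducible genes. Of 13 leukocyte markers 6, among them Cd3e, Itgax and Adgre1, had 0 counts in all 8 libraries and 10 were under 1 normalised CPM in every library. Their summed level was 54.2 to 74.3 normalised CPM in PBS and 61.6 to 116 in TNF, or at most 97.8 without TNF replicate 4, and Cd74 made up most of it except in TNF replicate 4, where Lyz2 did. Cd52 was called higher, at 0.385 to 0.591 normalised CPM in PBS and 0.772 to 3.35 in TNF, and Cd74 was called as well without TNF replicate 4. Ptprc, the pan-leukocyte marker, was between 0 and 0.394 in all libraries but TNF replicate 4 (0.773). Of 7 stromal and endothelial markers 6 had at most 1 normalised CPM everywhere and 2 were at 0, and the one tested, Vim, was higher (summed list 0.223 to 0.452 in PBS, 1.23 to 1.76 in TNF). All 3 tested enteroendocrine markers were higher (9.74 to 12.8 in PBS, 29.7 to 60.1 in TNF), 3 of 4 stem cell markers (1400 to 2300 and 1300 to 1830) and 1 of 7 enterocyte markers (at most 275 in PBS and 296 in TNF) were lower, and of 7 goblet cell markers (3680 to 5940 and 6390 to 7630) 2 were higher and 2 lower. Of 8 Paneth cell markers (311000 to 459000 in PBS, 389000 to 1210000 in TNF and at most 453000 without TNF replicate 4) 2 were higher. In the fit of all 8 libraries 23.4% of all tested genes were called higher and 19.6% lower, and the Paneth cell count is near the former. Tuft cell markers (11.9 to 27.3 and 7.58 to 52.9) had 0 of 3 called by edgeR, DESeq2 or limma-voom, and 0 at an unadjusted p under 0.05. The part of these markers in the changes of the proteasome genes was not tested.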

How the data were processed

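Messenger RNA of sorted Paneth cells was measured by RNA-seq (Aurum Total RNA Mini kit, TruSeq Stranded mRNA libraries). The authors deposited raw counts per Ensembl gene ID for 55414 rows and 8 libraries, not normalized. The submitters' processing notes name FastQC 0.12, STAR 2.7.10a, DESeq2 and the build mm39. The counter, its annotation, its use of strand and its treatment of multi-mapping reads remain unknown (not given in the sources used here), so genes that share sequence are uncertain, and the share of 75-base stretches found in no other annotated transcript is given for the members with the lowest shares.

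Gene names, positions and lengths came from GENCODE vM39 (GRCm39), which matched 54749 rows. The whole table was tested in edgeR 4.0.16 by quasi-likelihood (limma 3.58.1, R 4.3.3), TMM scaling, the filterByExpr filter and Benjamini-Hochberg adjustment, and a gene counted as called at an adjusted p under 0.05. SE are those of the log2 fold change, and no covariate was used. Of 195 genes changed in counts simulated for TNF against PBS over 13187 genes, 183 (93.8%) were recovered with 12 false calls (6.15%). Of these, 73 of the 85 genes changed 2-fold and 110 of the 110 changed 4-fold were recovered. The simulated counts had the same dispersion for all genes and no outlying library or shift in composition like that of TNF replicate 4. Their rates therefore do not carry over to the real libraries. The 5 ratios of subunits used log2 of counts plus 0.5 and a two-sided exact permutation test over 70 assignments. Levels per kilobase used coding lengths. Calls of genes were repeated by DESeq2 1.42.0 and limma-voom in place of edgeR, with RLE factors or library size alone in place of TMM, with TMM factors computed without alpha-defensin (Defa) genes, with no filter beyond 1 count or one of 1 CPM in 4 libraries, with equal replicate numbers as a block, with a stricter threshold of 0.01, and without each library in turn. Ratios were also taken with a pseudocount of 5, against the summed core, with equal numbers as a block and without each library in turn. Sums and shares were recomputed without TNF replicate 4 alone, and levels per kilobase were not recomputed.

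The members, gene lists and comparisons were chosen with earlier results of these data known. The genes named were the inducible subunits, their counterparts, Psme3 and Psme4, the members with the largest and smallest log2 fold change in each constitutive group, the called genes with the 3 smallest p in each direction per list, and Pomp, Nfe2l1, Ubd, Irf1, Nlrc5 and Tap1. Any other gene was named after its values were seen. Marker lists covered Paneth, goblet, enterocyte, stem, leukocyte, stromal and endothelial, enteroendocrine and tuft cells. No libraries of a group were duplicates (lowest chi-square per degree of freedom 8.77). Some genes of the fixed lists are counted but not reported here by name or plotted.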

Additional observations from a re-analysis of the deposited data

Results flagged for a closer look

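In groups of 4 libraries, a library was singled out for a gene when its gap to the nearest other library, divided by the range of the group (Dixon's ratio), was above the 95% critical value. Chance does this for about 1 in 20 groups, and 76 groups were looked at, so a few are expected, although genes of the same libraries are not independent.

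TNF replicate 4 was far above the other TNF libraries for 19 genes. In the alpha ring the ratios were 0.895 for Psma1, 0.886 for Psma2, 0.943 for Psma3, 0.873 for Psma4, 0.921 for Psma5, 0.923 for Psma6 and 0.944 for Psma7. Among the beta subunits they were 0.898 for Psmb1, 0.939 for Psmb4, 0.931 for Psmb5, 0.900 for Psmb6, 0.832 for Psmb7 and 0.859 for Psmb10. In the cap they were 0.933 for Psmc3, 0.884 for Psmc6, 0.879 for Psmd8, 0.874 for Psmd13 and 0.875 for Psmd14, and Psme2 was at 0.926. TNF replicate 4 was far below the others for Psmd3 (0.873) and Psme4 (0.963).

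PBS replicate 4 was far below the other PBS libraries for Psma2 (0.885), Psma5 (0.845) and Psmc1 (0.901).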

How the results depend on the processing

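Of the 38 genes 18 were called higher (47.4%, against 23.4% of all genes). Under library size alone 4 were called (10.5%, against 5.66%), and with the replicate block 10 (26.3%, against 20.5%). At an adjusted p under 0.01 there were 10, for which no share of all genes is given. When 1 library was left out there were 13 to 22, against 18.2% to 26.6% of all genes. For the 31 core and cap genes the count of 12 became 0, 4 and 4 under the same settings and 7 to 16 when 1 library was left out (7 without PBS replicate 1 and 7 without PBS replicate 4). With the replicate block 12.9% of the core and cap genes and 0 of the 7 alpha genes were called higher, against 20.5% of all genes. The 5 inducible genes were all called in every setting but library size alone (4), and none of the 38 was called lower in any of these settings. Deviations of same-numbered PBS and TNF libraries from their group means correlated at 0.0229, 0.0663, -0.144 and -0.126. No pairing by number was seen, but so few correlations cannot exclude it.

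The log2 ratio differences of Psmb8 (1.54), Psmb9 (1.12), Psmb10 (1.499) and Psme2 (1.16) had an adjusted p of 0.156 in the exact sign-flip test with equal replicate numbers as a block, whose smallest p is 0.125. Leaving out 1 library gave ranges of 1.41 to 1.75, 1.02 to 1.29, 1.43 to 1.53 and 0.67 to 1.38. Psme1 to Psme3 ranged from -0.15 to 0.21.

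Log2 fold changes turned negative under library size alone for 15 of the 38 genes, among them Psmb5 (-0.074), Psmb7 (-0.061), Psme4 (-0.19), Psma4 (-0.076), Psmb3 (-0.28), Psmc3 (-0.36) and Psmd2 (-0.29). With 1 library left out, Psmb3 ranged from -0.053 (without TNF replicate 4) to 0.34, Psmc3 from -0.061 (without TNF replicate 4, and -0.014 without PBS replicate 4) to 0.17, and Psmd2 from -0.071 (without PBS replicate 4, and -0.032 without TNF replicate 2) to 0.15. Of the 15, Psmd1 (-0.0096) was called higher with TMM and the others were not. The cause of these shifts was not tested. The lowest count of a subunit in a library was 143, and counting error is part of the spread between libraries.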
